A study of Mus musculus with 6 samples.

Results

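The 9 genes described here encode the core of the PI3K, AKT and mTOR route that is associated with trained immunity. They are Pik3cd, Pik3cg and Pik3r5 (class I phosphoinositide 3-kinases of leukocytes), Akt1, Mtor and Rptor (the kinases AKT1 and mTOR and the mTOR partner Raptor), and Rheb, Tsc1 and Tsc2 (the GTPase that switches mTOR complex 1 on, and the complex that holds it back). They were taken by symbol from a list written for this work with earlier results of these data known, by a rule that used no measured value, and matched by Ensembl gene ID in GENCODE vM21, which found 9 of 9 among the 21780 genes of the count table. RNA-Seq had been performed on myeloid cells sorted as CD45+CD11b+ from the pancreas of C57BL/6 mice aged 6 to 8 weeks. Mice of both groups received an intraperitoneal injection and were examined on day 7: the PBS group (3 libraries) was given the vehicle, and the WGP group (3 libraries) 1 mg of whole glucan particles, a particulate β-glucan from yeast cell walls that phagocytes must engulf. The study used male and female mice, and the sex behind each library is not given in the sources used here. The study describes the samples as separate animals of a single experiment, so that p-values measure the spread between animals within that experiment.

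As background, class I PI3K turns the membrane lipid PIP2 into PIP3, on which AKT is activated. AKT phosphorylates TSC2 and so releases RHEB, which activates mTOR complex 1, a promoter of translation and of anabolic metabolism. In monocytes that meet β-glucan through the receptor Dectin-1, this route and the transcription factor HIF1A are known for the shift to glycolysis that accompanies training. These proteins are controlled largely by phosphorylation and by their partners, and transcript levels do not report that activity.

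Libraries held 35334645 to 43341834 counts. The myeloid markers of the sort were present in every library: Ptprc (CD45) lay at 949 to 1043 CPM (counts relative to the library total, scaled by TMM) in PBS and at 1536 to 1747 in WGP, and Itgam (CD11b) at 189 to 254 and 379 to 418. Of the 6 myeloid markers 4 rose, and their summed level was 9066 to 14933 CPM in PBS and 21815 to 23149 in WGP. Markers of other cells moved with the groups. All 6 resident macrophage markers were detected and 5 fell (summed level 3510 to 9133 CPM in PBS, 914 to 1156 in WGP), as did 5 of 5 B cell markers (361 to 2414, and 86.8 to 169) and 7 of 7 acinar cell markers (1169 to 4476, and 294 to 520). Of the 4 platelet markers 1 was at 0 in every library and 1 of the 3 tested fell, Pf4, which made up nearly all of their summed level (263 to 454 CPM in PBS, 11.3 to 16.9 in WGP). Of the 6 Ly6C-high monocyte markers 3 rose (Ly6c2 by 2.85, Plac8 by 2.09 and Ccr2 by 1.98 on the log2 scale) and F13a1 fell by 2.57. Their summed level was 2467 to 4162 CPM in PBS and 3247 to 3848 in WGP. F13a1 alone made up 1335 to 3474 CPM of it in PBS and 347 to 503 in WGP. PBS replicate 1 stood apart from the other PBS libraries, with the most B cell marker RNA (2414 CPM), the least resident macrophage marker RNA (3510 CPM) and no Y-linked counts. PBS replicates 2 and 3 had 8972 and 10063 Y-linked counts and the WGP libraries 0, 0 and 1. Y-linked counts come from male mice, so male RNA was present in PBS and all but absent from WGP. Sex and treatment are thus partly confounded, with PBS replicate 1 the only PBS library without Y-linked counts. The term for Y-linked counts used below stands for this difference. In WGP replicate 2 the 5 fibroblast markers summed to 1803 CPM, against 33.7 to 171 in the other libraries. The part of these differences in the results was not tested. In bulk RNA a change in the share of a cell type and a change in RNA per cell cannot be told apart.

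Of the 9 genes, Pik3r5 and Pik3cd rose in WGP-treated mice, by 2.51-fold and 1.57-fold, and the other 7 did not pass the test. WGP was compared with PBS by edgeR's quasi-likelihood test over 14429 genes, with Benjamini-Hochberg adjustment over all of them. At an adjusted p of at most 0.05, 2 of the 9 genes were higher in WGP, where 7.54% of all genes tested were higher, and 0 were lower, where 6.81% of all genes were lower. In either direction 14.4% of all genes passed. At an unadjusted p under 0.05 the counts were again 2 higher and 0 lower, and DESeq2's Wald test gave 2 genes past the threshold, both higher. Where the log2 fold change also had to reach 1 in size, 1 of the 9 was called (Pik3r5), beside 9.49% of all genes. All 3 WGP libraries lay above all 3 PBS libraries in 3 of the 9 genes (Pik3cd, Pik3r5 and Rptor), and the groups did not overlap in 32% of all genes. The median log2 fold change of the 9 genes was 0.19, with 6 estimates above 0 and 3 below, and that of all genes tested was -0.05.

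**Figure D1:**
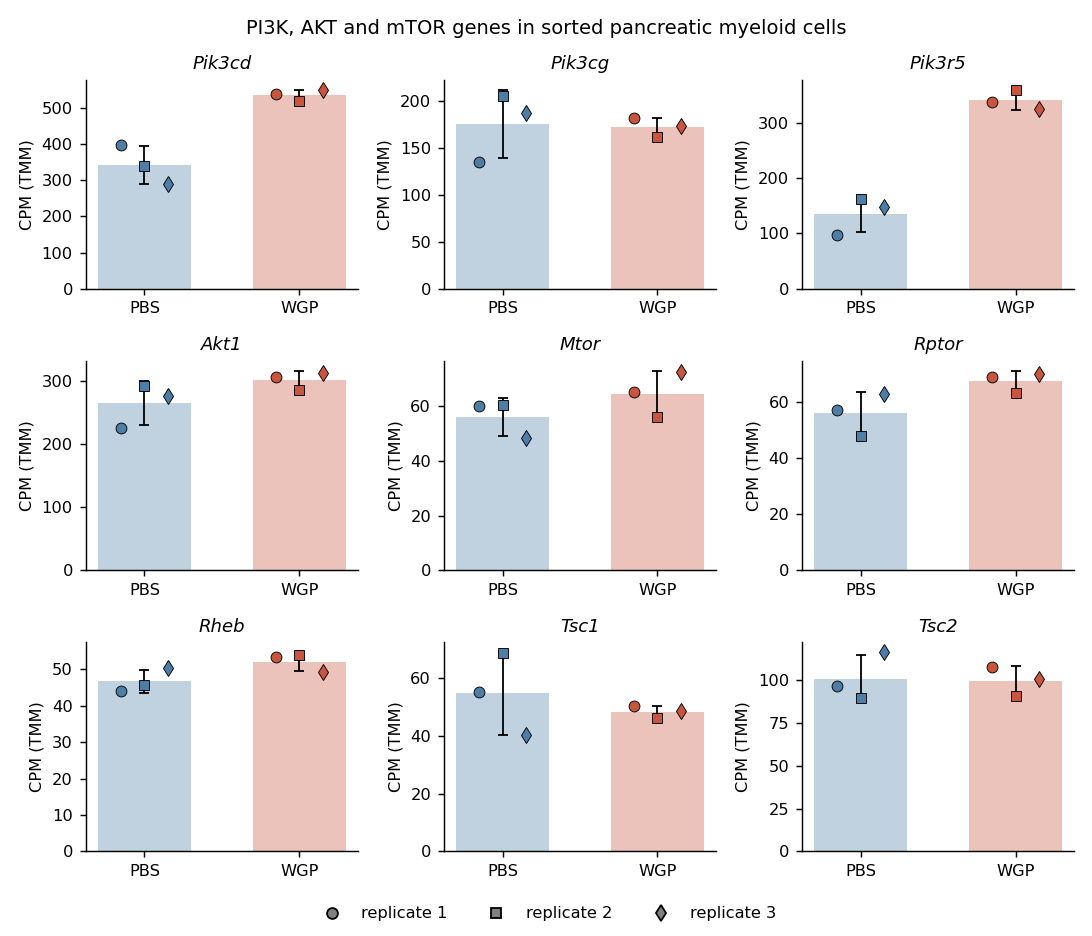
Levels of the 9 genes in each library, in CPM scaled by TMM on axes that start at 0. Symbols are libraries, bars the mean of 3 libraries and error bars the SD. Pik3cd and Pik3r5 show WGP libraries well above the PBS libraries, Rptor shows WGP libraries just above them, and the groups overlap in the other 6 genes.

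Pik3r5 encodes p101, a regulatory subunit that binds the catalytic subunit p110γ and couples it to Gβγ released by G protein-coupled receptors. The gene (ENSMUSG00000020901) spans chr11:68432121-68497849 on the plus strand of GRCm38. Its level was 98.0, 162 and 147 CPM in PBS replicates 1, 2 and 3 (3766, 6309 and 6018 counts) and 337, 360 and 324 CPM in WGP replicates 1, 2 and 3 (12423, 14914 and 13264 counts). The lowest WGP library was far above the highest PBS library, and the lowest value of all was that of PBS replicate 1. The mean was 136 ± 33.5 CPM in PBS and 340 ± 18.0 CPM in WGP (SD, n = 3 each). The log2 fold change was 1.33 (SE 0.19, 95% interval 0.90 to 1.75, adjusted p = 0.00111 by edgeR's quasi-likelihood test), a fold of 2.51 with an interval of 1.87 to 3.37. It passed the threshold under all 16 alternatives in processing, with log2 fold changes of 1.14 to 1.80, and the lowest of these came without PBS replicate 1.

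The promoters of Pik3r5 and of Pik3cg, the subunit it partners, are shown because the former gene rose and the latter did not pass the test. Sequences are from RefSeq on GRCm38.p6 and run 5′ to 3′ on the strand of the gene from 250 bases before to 50 bases after the listed start. They cover chr11:68431875-68432174 (plus strand) and chr12:32208610-32208909 (minus strand), and capitals mark matches to the motifs named below.
Pik3r5: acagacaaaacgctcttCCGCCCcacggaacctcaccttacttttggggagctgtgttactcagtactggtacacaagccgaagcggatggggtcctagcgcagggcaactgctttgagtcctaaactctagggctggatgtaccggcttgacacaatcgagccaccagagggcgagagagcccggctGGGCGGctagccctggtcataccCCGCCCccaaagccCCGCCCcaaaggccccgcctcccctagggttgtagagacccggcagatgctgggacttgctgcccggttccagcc
Pik3cg: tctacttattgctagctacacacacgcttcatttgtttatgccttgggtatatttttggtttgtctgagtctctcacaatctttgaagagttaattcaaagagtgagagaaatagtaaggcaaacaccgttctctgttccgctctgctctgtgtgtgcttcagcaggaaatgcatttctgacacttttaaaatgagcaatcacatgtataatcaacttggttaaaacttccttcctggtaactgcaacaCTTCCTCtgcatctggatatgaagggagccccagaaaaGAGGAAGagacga
The Pik3r5 window was 62% G and C and held GGGCGG, the core of a GC box, at 4 places on either strand. The Pik3cg window was 40.7% G and C and held GAGGAAG, the purine-rich core that PU.1 and related ETS factors bind, at 2 places. Over all 32851 promoters of this length GGGCGG occurred in 35.7% and GAGGAAG in 13.6%. The 9 genes have 13 listed starts, 3 for Pik3cd, 2 each for Pik3cg and Akt1 and 1 for each of the others. Of the 13 windows 6 held GGGCGG and 2, both of Pik3cg and overlapping each other, held GAGGAAG. The E-box CACGTG, which MYC and TFEB recognize, was in 1 window, that of Rheb, against 7.15% of all promoters. ACGTG, the core of the HIF site and contained in CACGTG, was in 3 windows (Pik3cd, Rptor and Rheb), against 19.6%. TTCCNGGAA, a STAT site with any base at N, was in 0 of the 13 windows and in 1.15% of all promoters. All motifs were searched on both strands. A match is a stretch of letters and not a shown binding site.

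Pik3cd encodes p110δ, a catalytic subunit enriched in leukocytes that acts below receptors signalling through tyrosine kinases. It lies at chr4:149649168-149702571 on the minus strand (ENSMUSG00000039936). In PBS replicates 1, 2 and 3 it stood at 397, 338 and 290 CPM (15243, 13185 and 11886 counts), and in WGP replicates 1, 2 and 3 at 539, 518 and 548 CPM (19850, 21474 and 22438 counts). The groups did not overlap, and the WGP libraries lay much closer together than the PBS libraries. Means were 342 ± 53.1 CPM in PBS and 535 ± 15.5 CPM in WGP (SD, n = 3 each). The log2 fold change was 0.65 (SE 0.15, 95% interval 0.30 to 0.99, adjusted p = 0.0176 by edgeR's quasi-likelihood test). Within PBS the order of the libraries was also that of several marker sums, in replicates 1, 2 and 3: B cell (2414, 621 and 361 CPM), neutrophil (4221, 2615 and 1902 CPM), NK cell (152, 83.3 and 37.6 CPM), endothelial, eosinophil, and mast cell and basophil markers. In WGP, where Pik3cd was higher, the B cell markers summed to 86.8 to 169 CPM, the neutrophil markers to 2011 to 2221 CPM and the NK cell markers to 26.8 to 40.1 CPM. The endothelial markers summed to 24.5 to 114 CPM in PBS and 38.0 to 64.5 CPM in WGP, the eosinophil markers to 7.18 to 24.2 CPM in PBS and 13.1 to 51.1 CPM in WGP, and the mast cell and basophil markers to 0 to 12.5 CPM in PBS and 0 in every WGP library. The part of these cells in the level of Pik3cd was not tested.

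The call of Pik3cd depended on single libraries and on the scaling. Its log2 fold change ranged from 0.43 to 0.76 under the 16 alternatives, and the adjusted p passed the threshold in 10 of them. Without PBS replicate 2 the adjusted p was 0.0805 and without PBS replicate 3 it was 0.0575, while without WGP replicate 1 it was 0.0610 and without WGP replicate 3 it was 0.0714. With library totals as the only scaling the log2 fold change was 0.54 (adjusted p = 0.0555, edgeR). With a term for libraries that hold Y-linked counts it was 0.43 (adjusted p = 0.146, edgeR), a fit that in effect sets the WGP libraries against PBS replicate 1, the PBS library with the highest Pik3cd. Without PBS replicate 1 it was 0.76 (adjusted p = 0.00363).

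**Figure D2:**
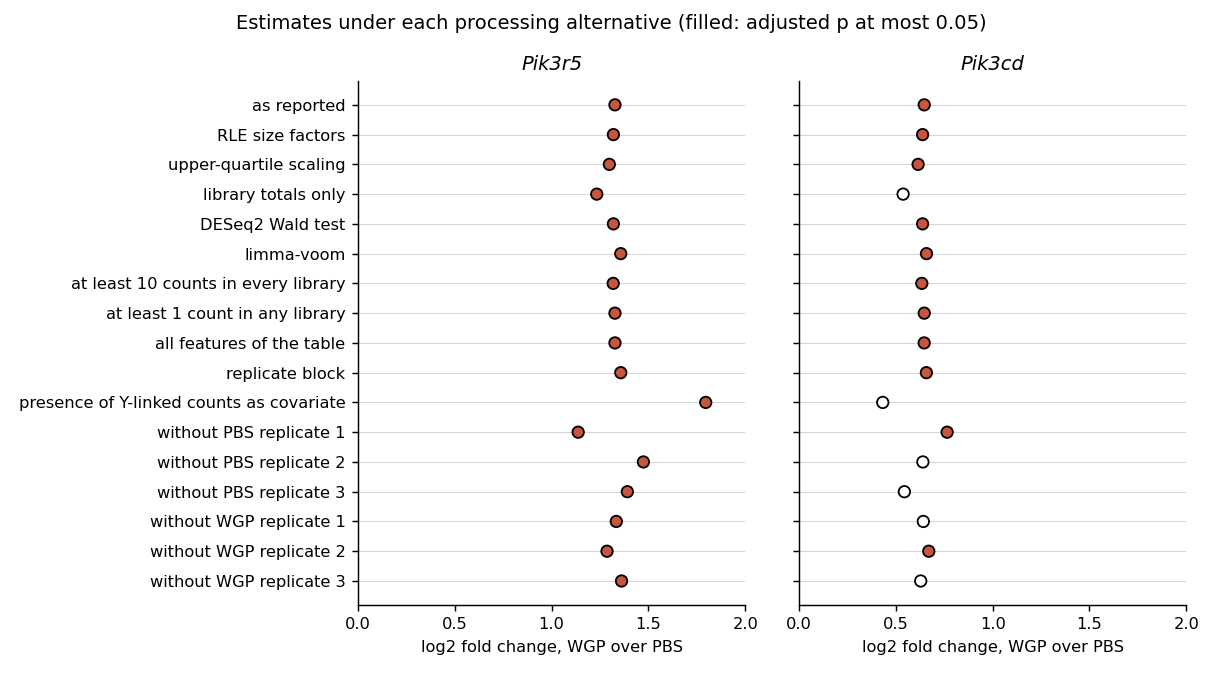
Log2 fold change of WGP over PBS (horizontal axes) for Pik3r5 and Pik3cd as reported and under each of the 16 alternatives in processing (vertical axis). Filled points have an adjusted p of at most 0.05: all points are filled for Pik3r5, between 1.14 and 1.80, and 10 of the 16 alternatives for Pik3cd, between 0.43 and 0.76.

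Pik3cg encodes p110γ, the catalytic subunit that p101 regulates and that serves chemokine and other G protein-coupled receptors in myeloid cells. It lies at chr12:32173473-32208659 on the minus strand (ENSMUSG00000020573). Its level was 135, 205 and 187 CPM in PBS replicates 1, 2 and 3 and 181, 162 and 173 CPM in WGP replicates 1, 2 and 3. The WGP values fell inside the range of the PBS values. The log2 fold change was -0.03 (SE 0.17, 95% interval -0.41 to 0.35, adjusted p = 0.942, edgeR), an interval that leaves room for a change of up to 0.41 downward. Its sign was not stable and turned positive in 4 of the 16 alternatives. Within libraries, the log2 ratio of Pik3cg to Pik3r5 counts was 0.47, 0.34 and 0.35 in the PBS libraries and -0.90, -1.15 and -0.91 in the WGP libraries. Pik3cg thus had more raw counts than Pik3r5 in all 3 PBS libraries and fewer in all 3 WGP libraries. Raw counts do not allow for exonic length, which is 8426 bases for Pik3cg and 5550 for Pik3r5. Per kb of exon Pik3r5 was already the higher gene in PBS replicates 1, 2 and 3 (17.7, 29.2 and 26.5 CPM, against 16.1, 24.3 and 22.2 for Pik3cg). The mean ratio differed by -1.37 between the groups (two-sided exact permutation test, p = 0.1, adjusted p = 0.35 over the 7 pairs computed), where 0.1 is the smallest p that 3 against 3 libraries can give. The log2 ratio of Pik3cd to Pik3cg differed by 0.67, with no overlap between the groups (exact permutation p = 0.1, adjusted p = 0.35), although PBS replicate 1, at 1.55, lay close to the lowest WGP library, at 1.57.

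Akt1 encodes the ubiquitous AKT kinase that PIP3 recruits to the membrane. It lies at chr12:112653821-112674884 on the minus strand (ENSMUSG00000001729). It was measured at 225, 292 and 276 CPM in PBS and at 305, 285 and 312 CPM in WGP. PBS replicate 1 was the lowest library, and of the PBS libraries replicate 2 alone reached into the WGP range. The means were 264 and 301 CPM (n = 3 each), with coefficients of variation of 13.3% and 4.76%, and the log2 fold change was 0.19 (SE 0.15, 95% interval -0.14 to 0.52, adjusted p = 0.456, edgeR).

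Mtor, the kinase of both mTOR complexes, lies at chr4:148448611-148557683 on the plus strand (ENSMUSG00000028991). Its level was 59.9, 60.3 and 48.2 CPM in PBS and 65.1, 56.0 and 72.7 CPM in WGP. The highest values were in WGP, but WGP replicate 2 lay below PBS replicates 1 and 2. The log2 fold change was 0.20 (SE 0.17, 95% interval -0.19 to 0.59, adjusted p = 0.497, edgeR).

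Rptor encodes Raptor, which presents substrates to mTOR in complex 1. Rptor lies at chr11:119602905-119899576 on the plus strand (ENSMUSG00000025583), and 84 of its exonic bases overlap the antisense gene Rptoros. PBS libraries had 57.3, 47.9 and 63.0 CPM and WGP libraries 69.1, 63.2 and 70.1 CPM. The lowest WGP library was barely above the highest PBS library. The log2 fold change was 0.27 (SE 0.17, 95% interval -0.10 to 0.63), which did not pass the test (adjusted p = 0.355, edgeR). Rictor, the counterpart of Raptor in mTOR complex 2, had a log2 fold change of 0.03 (SE 0.15), and the log2 ratio of Rptor to Rictor counts differed by 0.25 between the groups, which overlapped (exact permutation p = 0.3, adjusted p = 0.42).

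Rheb, the small GTPase that activates mTOR complex 1 at the lysosome, lies at chr5:24802823-24842624 on the minus strand (ENSMUSG00000028945). It had 44.0, 45.8 and 50.2 CPM in PBS and 53.3, 53.9 and 49.2 CPM in WGP. WGP replicate 3 lay below PBS replicate 3, and no other pair of libraries crossed. The log2 fold change was 0.16 (SE 0.16, 95% interval -0.20 to 0.52, adjusted p = 0.581, edgeR).

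Tsc1 encodes hamartin, which stabilizes tuberin, and Tsc2 encodes tuberin, the GTPase-activating protein that turns RHEB off. Tsc1 lies at chr2:28641228-28691167 on the plus strand (ENSMUSG00000026812) and had 55.1, 68.6 and 40.2 CPM in PBS and 50.2, 46.0 and 48.5 CPM in WGP. The PBS libraries spread widely on both sides of the tightly grouped WGP libraries. Its log2 fold change was -0.18 (SE 0.21, 95% interval -0.64 to 0.29, adjusted p = 0.643, edgeR). Tsc2 lies at chr17:24595816-24632630 on the minus strand (ENSMUSG00000002496) and had 96.8, 89.8 and 116 CPM in PBS and 108, 90.7 and 101 CPM in WGP. The groups overlapped throughout, and the log2 fold change was -0.02 (SE 0.16, 95% interval -0.36 to 0.33, adjusted p = 0.964, edgeR). Because 693 exonic bases of Tsc2 overlap Pkd1 on the other strand and the strand setting of the counting is not given in the sources used here, reads of these genes may be mixed. The log2 ratios of Tsc1 to Tsc2 and of Rheb to Tsc2 differed by -0.13 and 0.17 between the groups, with overlap (exact permutation p = 0.7 and 0.3, adjusted p = 0.7 and 0.42).

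**Figure D3:**
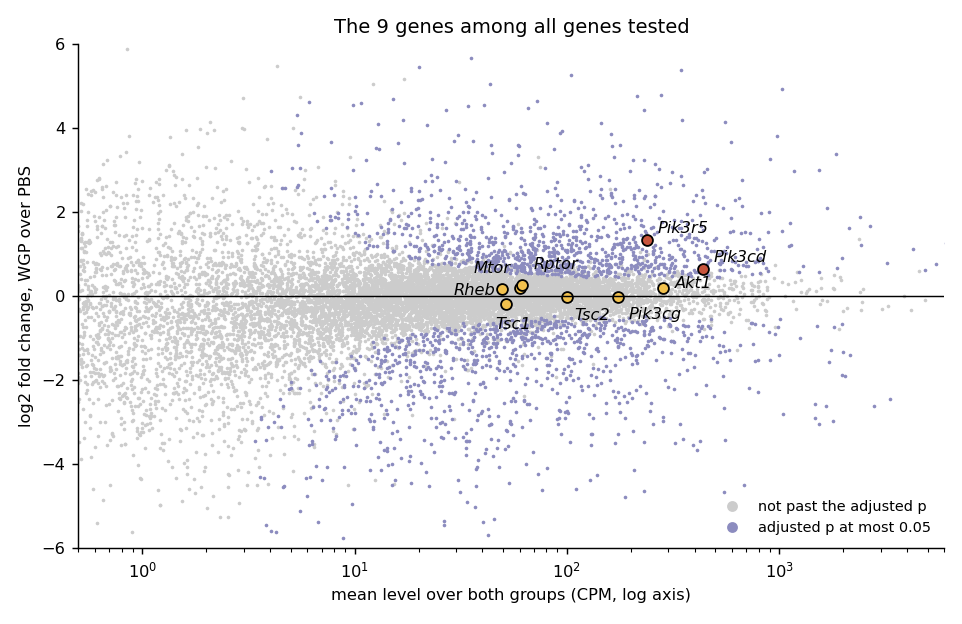
Log2 fold change of WGP over PBS against the mean level in CPM (log axis) for the genes tested, with the 9 genes as large points. Pik3r5 (1.33) and Pik3cd (0.65) are red, the other 7 are yellow and lie between -0.18 and 0.27, and 2208 genes fall outside the axes.

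In PBS the order of the mean levels in CPM per kb was Akt1 (64.5), Pik3cd (54.6), Pik3r5 (24.4), Pik3cg (20.8), Tsc2 (10.5), Rheb (6.04), Mtor (5.56), Tsc1 (4.62) and Rptor (4.16). Among neighbours in this order the ranges over libraries overlapped for Akt1 and Pik3cd, for Pik3r5 and Pik3cg, and along the run from Rheb to Rptor. In WGP the order was Pik3cd (85.5), Akt1 (73.4), Pik3r5 (61.3), Pik3cg (20.4), Tsc2 (10.4), Rheb (6.75), Mtor (6.39), Rptor (5.01) and Tsc1 (4.08), and Rheb and Mtor were the sole neighbours whose ranges overlapped. The leukocyte PI3K genes and Akt1 were thus above the mTOR complex 1 switch and its kinase in transcript level, and the exonic length used here, the union over all transcripts, lowers the level of genes with many long variants.

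The spread between libraries differed between the groups. The coefficient of variation was lower in WGP than in PBS in 8 of the 9 genes, the exception being Mtor (12.2% in PBS and 12.9% in WGP), and in 58.3% of the 8564 genes with a mean of at least 10 CPM and with counts in both groups. The median coefficient of variation of the 9 genes was 13.7% in PBS and 5.29% in WGP, beside 16.9% and 14.1% for those genes. PBS replicate 1 was the lowest of the PBS libraries for Pik3cg, Pik3r5, Akt1 and Rheb and the highest for Pik3cd.

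Within the PI3K gene families, the share of each gene in the summed CPM per kb of its family was computed after the values had been seen. Among the class I catalytic subunits Pik3cd took 61.1% ± 6.15 in PBS and 68.6% ± 0.49 in WGP (SD, n = 3 each), Pik3cg 23.6% ± 5.48 and 16.4% ± 0.56, Pik3ca (p110α) 9.70% and 7.91%, and Pik3cb (p110β) 5.59% and 7.13%. The share of Pik3cd in PBS replicate 1, 68.0%, lay just below that of the lowest WGP library, 68.2%. Pik3r5 took 58.4% ± 2.92 of the sum with Pik3r6 (the other regulatory subunit of p110γ) in PBS and 62.6% ± 5.33 in WGP, with overlap, and both genes rose. The log2 ratio of Pik3r5 to Pik3r6 counts differed by 0.26 (exact permutation p = 0.4, adjusted p = 0.467), and that of Akt1 to Akt2 by 0.28 (p = 0.2, adjusted p = 0.42, exact permutation).

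**Figure D4:**
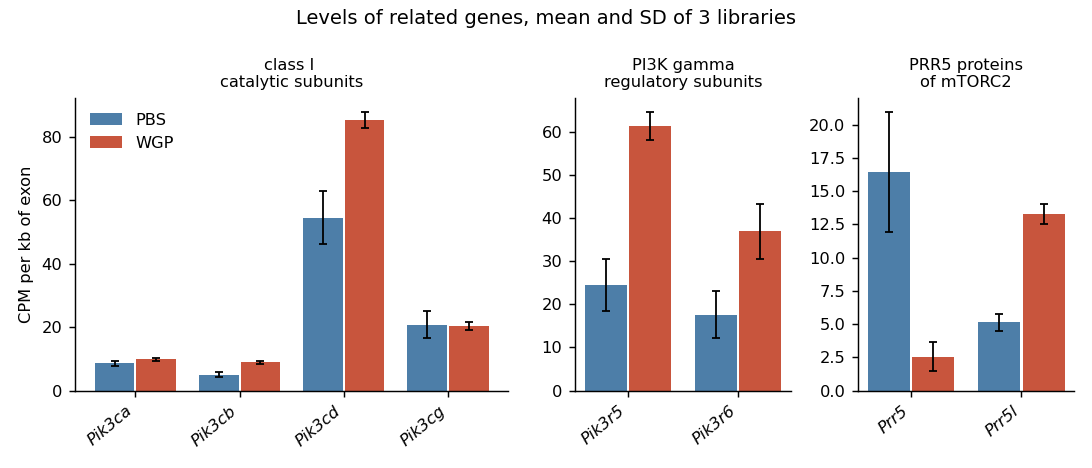
Levels of related genes in CPM per kb of exon, as bars of the mean of 3 libraries with the SD, in PBS (blue) and WGP (red), each panel with its own axis from 0. Pik3cd is the most abundant catalytic subunit in both groups, Pik3r5 and Pik3r6 are higher in WGP, and Prr5 and Prr5l change places (16.4 and 5.12 in PBS, 2.55 and 13.3 in WGP).

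The genes whose log2 CPM followed Pik3r5 most closely over the 6 libraries, among the 8567 other genes with a mean of at least 10 CPM, were Parp10, Alpk1 and Apaf1 (Pearson r = 0.997 for each). For Pik3cd they were Orai2 (r = 0.999), Cd300lf and Relb (both 0.997), for Akt1 Zfp386 (0.995), Dnajb14 (0.994) and Rab3d (0.990), and for Tsc2 AW549877 (0.994), Zfpl1 (0.990) and Pafah1b1 (0.963). With 6 points, which share library and depth with every gene, and with the closest of 8567 genes chosen, these values are a description.

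Around the 9 genes, 92 further genes of the pathway were listed by role, and 88 could be tested. Of these 7 rose and 10 fell at an adjusted p of at most 0.05, the background being 7.54% and 6.81% of all genes. The estimates were positive in 48 and negative in 40, and the median log2 fold change was 0.03. The median absolute log2 fold change was 0.35 for these genes, 0.19 for the 9 genes and 0.54 for all genes tested.

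Among the other class I PI3K subunits and adaptors 2 of 7 rose. Pik3r6 had 41.7, 71.5 and 78.3 CPM in PBS and 134, 110 and 157 CPM in WGP, with a log2 fold change of 1.06 (SE 0.24, adjusted p = 0.0129, edgeR). Pik3cb, the broadly expressed p110β, had 42.5, 30.9 and 34.0 CPM in PBS and 63.4, 60.5 and 67.8 CPM in WGP, with a log2 fold change of 0.84 (SE 0.18, adjusted p = 0.0111). In both genes all WGP libraries lay above the PBS libraries. Without WGP replicate 3 neither passed (adjusted p = 0.0594 for Pik3r6 and 0.0529 for Pik3cb), and Pik3cb did not pass without PBS replicate 2 (0.0547) or with the term for Y-linked counts (log2 fold change 0.59, adjusted p = 0.126). With that term Pik3r6 had a log2 fold change of 1.68 (adjusted p = 0.00251). The broadly expressed p110α gene, Pik3ca, had a log2 fold change of 0.20 (SE 0.15, adjusted p = 0.414).

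Of 10 receptors and docking proteins that feed PI3K, 1 rose and 2 fell. Csf2rb, the shared β chain of the receptors for GM-CSF, IL-3 and IL-5, had 206 to 227 CPM in PBS and 968 to 1162 CPM in WGP (log2 fold change 2.33, SE 0.15, adjusted p = 1.23e-05, edgeR). Irs2, the docking protein of the insulin and IGF1 receptors, had 144 to 183 CPM in PBS and 39.3 to 53.7 CPM in WGP (log2 fold change -1.78, SE 0.17, adjusted p = 9.61e-05). Gab3, a docking protein below the M-CSF receptor, had a log2 fold change of -1.20 (SE 0.33, adjusted p = 0.0355). Gab3 lost its call when PBS replicate 2 (0.0694), PBS replicate 3 (0.149), WGP replicate 1 (0.113) or WGP replicate 2 (0.0800) was left out, with limma-voom (0.0527), and with the term for Y-linked counts (log2 fold change -0.86, adjusted p = 0.255).

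Of 8 phosphatases and inhibitors that oppose PI3K and AKT, 1 fell. Inpp4b, which removes a phosphate from PI(3,4)P2, had 45.4, 24.6 and 22.8 CPM in PBS and 4.69, 10.2 and 6.96 CPM in WGP (log2 fold change -2.09, SE 0.38, adjusted p = 0.00429, edgeR). Inpp5d, the leukocyte phosphatase SHIP1, had 381 to 477 CPM in PBS and 366 to 419 CPM in WGP (log2 fold change -0.17, SE 0.15, adjusted p = 0.508). In this gene the groups overlapped.

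Of 4 kinases beside AKT1, 1 rose. Sgk1, a kinase related to AKT that mTOR complex 2 activates, had 92.5 to 120 CPM in PBS and 233 to 282 CPM in WGP (log2 fold change 1.23, SE 0.16, adjusted p = 0.000489, edgeR). Akt2, with 97.5 to 138 CPM in PBS and 99.6 to 127 CPM in WGP, had a log2 fold change of -0.10 (SE 0.17, adjusted p = 0.785).

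Of 8 further subunits of the mTOR complexes and the TSC partner, 1 rose and 1 fell, and these are related proteins of mTOR complex 2. Prr5 (Protor-1) had 41.5, 26.6 and 26.3 CPM in PBS and 7.27, 3.21 and 4.20 CPM in WGP (log2 fold change -2.69, SE 0.37, adjusted p = 0.000835, edgeR). Prr5l (Protor-2) had 26.2, 28.3 and 21.8 CPM in PBS and 70.2, 62.9 and 64.8 CPM in WGP (log2 fold change 1.37, SE 0.18, adjusted p = 0.000597). Of their summed CPM per kb Prr5 took 75.7% ± 4.73 in PBS and 15.7% ± 4.88 in WGP (SD, n = 3 each). The highest Prr5 value was in PBS replicate 1, the library with the most B cell, neutrophil and NK cell marker RNA, and the part of these cells was not tested.

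Of the amino acid branch, through which RAG GTPases bring mTOR complex 1 to the lysosome, 1 of 13 genes rose and 1 fell. Fnip2, a partner of folliculin, had 42.2 to 67.5 CPM in PBS and 93.5 to 126 CPM in WGP (log2 fold change 1.06, SE 0.20, adjusted p = 0.00552, edgeR). Rraga, the GTPase RagA, had 77.0 to 93.0 CPM in PBS and 45.6 to 55.4 CPM in WGP (log2 fold change -0.70, SE 0.16, adjusted p = 0.0157), and did not pass without WGP replicate 1 (0.0778). Among 11 regulators of that branch (GATOR subunits, sestrins and CASTOR proteins) 1 fell. Sesn1, a sestrin that restrains the RAG GTPases, had 93.0, 181 and 185 CPM in PBS and 52.9, 38.3 and 54.3 CPM in WGP (log2 fold change -1.66, SE 0.26, adjusted p = 0.00192), and with the term for Y-linked counts a log2 fold change of -0.94 (adjusted p = 0.0202). Of 7 energy and stress inputs tested 1 rose, Prkaa1 (a catalytic subunit of AMPK), with a log2 fold change of 0.63 (SE 0.16, adjusted p = 0.0257). It did not pass in 8 of the 16 alternatives, among them each of those without PBS replicate 2 (0.0938), PBS replicate 3 (0.0541) and any 1 of the WGP libraries (0.0603 to 0.0929).

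Of 11 mTOR complex 1 substrates and effectors tested 2 fell. Lpin1, a phosphatidate phosphatase, had a log2 fold change of -1.23 (SE 0.30, adjusted p = 0.0197, edgeR), and Pdcd4, an inhibitor of translation initiation, one of -1.26 (SE 0.29, adjusted p = 0.0155). Lpin1 lost its call when PBS replicate 2 (0.0572), PBS replicate 3 (0.0660) or WGP replicate 1 (0.0718) was left out, and Pdcd4 lost its call without WGP replicate 1 (0.0689). Pdcd4 had 121, 64.2 and 55.9 CPM in PBS and 29.5, 29.6 and 41.7 CPM in WGP, and its log2 fold change was -0.84 without PBS replicate 1 (adjusted p = 0.0234) and -1.85 with the term for Y-linked counts. With the term for Y-linked counts Lpin1 had a log2 fold change of -0.87 (adjusted p = 0.190). Of 9 AKT substrates 2 fell. Tbc1d4, which controls glucose transporter traffic, had 86.9 to 111 CPM in PBS and 21.9 to 45.4 CPM in WGP (log2 fold change -1.39, SE 0.26, adjusted p = 0.00546). Foxo1, the transcription factor that AKT keeps out of the nucleus, had 94.9, 46.8 and 41.7 CPM in PBS and 22.4, 32.4 and 24.4 CPM in WGP (log2 fold change -1.21, SE 0.31, adjusted p = 0.0261). Without PBS replicate 1 the log2 fold change was -0.75 (adjusted p = 0.0525), with the term for Y-linked counts it was -1.85, and Foxo1 did not pass without WGP replicate 1 (0.103) or WGP replicate 3 (0.0944). Of the pathway genes that fell, Irs2, Inpp4b, Prr5, Rraga, Foxo1 and Pdcd4 had in PBS the order of the B cell, neutrophil and NK cell marker sums, highest in replicate 1. Gab3, Sesn1 and Lpin1 had the order of the resident macrophage sum (3510, 7234 and 9133 CPM in PBS, 914 to 1156 in WGP), and Tbc1d4 had neither. Of the pathway genes that rose, Csf2rb had the former order and Pik3r6 and Fnip2 the latter. The part of these cells was not tested.

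**Figure D5:**
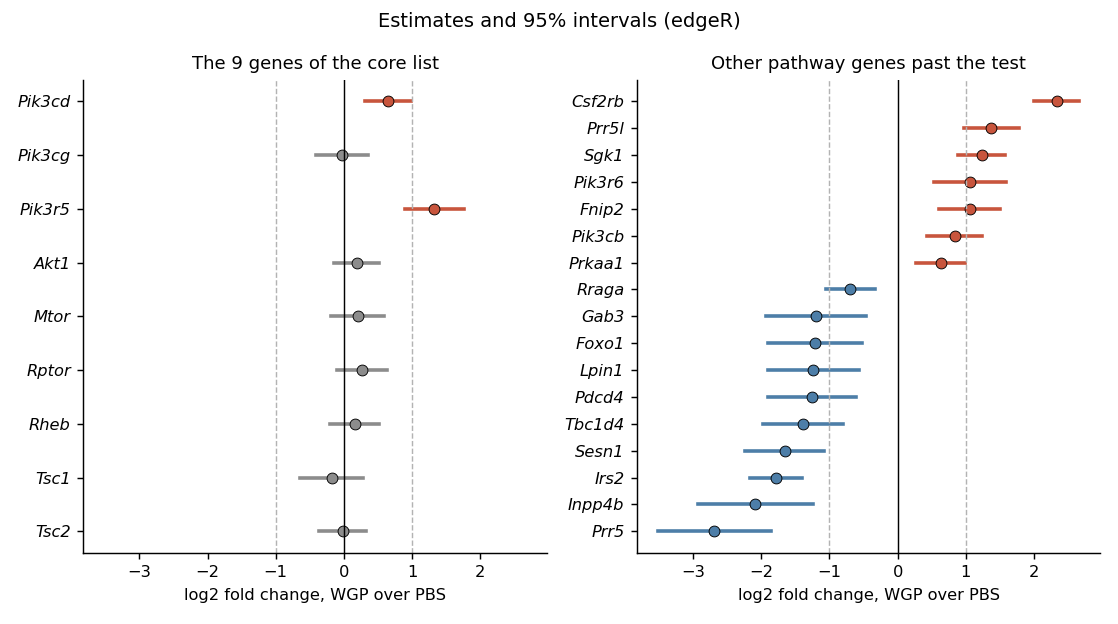
Log2 fold change of WGP over PBS with its 95% interval for the 9 genes (left) and the 17 other pathway genes past the adjusted p (right), with dashed lines at -1 and 1. Red marks genes that rose, blue genes that fell and grey genes not past the test. The right panel was chosen by the test and runs from -2.69 (Prr5) to 2.33 (Csf2rb).

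Hif1a and genes of glycolysis, named in the background above, were mostly higher in WGP. Whether the route had a part in this was not tested. Of 18 listed, 17 rose and 15 were also called with a log2 fold change of at least 1, beside 7.54% and 9.49% (either direction) of all genes, and the median log2 fold change was 1.70. This list was written with earlier results of these data known. Hif1a had 125 to 129 CPM in PBS and 559 to 842 CPM in WGP (log2 fold change 2.53, SE 0.18, adjusted p = 1.90e-05, edgeR). Tpi1 (triose phosphate isomerase) rose by 2.38 (SE 0.14) and Pfkl (liver phosphofructokinase) by 2.36 (SE 0.18) on the log2 scale. Pfkfb3, whose product raises the activity of phosphofructokinase, did not pass the test, with a log2 fold change of 0.08 (SE 0.18, adjusted p = 0.846).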

How the data were processed

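Poly(A) RNA of 6 libraries was measured. The authors used STAR 2.6 for alignment to mm10 (GRCm38.p6) and HTSeq 0.10.0 for counting, and deposited raw counts per Ensembl gene that were not normalized. The strand setting and the annotation release are not given in the sources used here. No column belonged to another series. Rps6kb1 and Rps6kb2 are counted as listed but were not analysed here.

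Tests covered the 14429 protein-coding genes whose RLE-normalized counts reached a sum of 10 across all libraries. They were run in R 4.3.3 with edgeR 4.0.16 (quasi-likelihood, TMM, no covariate), which was checked on simulated counts. Levels are TMM-scaled CPM. Intervals are 95%. Alternatives used limma 3.58.1, DESeq2 1.42.0, other scalings, filters and covariates, and each library left out in turn. Log2 ratios within libraries were compared by exact permutation.

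The 9 genes, the other lists and the markers were chosen with earlier results of these data known. Named were the 9 genes, up to 4 genes past the test per list and direction, the partners in ratios, 3 most alike genes for 4 members, and Rictor, Hif1a, Inpp5d and Atf4 regardless of their test. Ptprc, Itgam, Pf4, Ly6c2, Plac8, Ccr2, F13a1, Pik3ca and Pfkfb3 were named outside this rule after their values were seen, and Pkd1 and Rptoros for their overlap. Of the lists, 2 genes other than Rps6kb1 and Rps6kb2 are not reported here and are left out of the list counts. Of 2 IDs named Aldoa, the one with more counts was used.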

Additional observations from a re-analysis of the deposited data

How the results depend on the processing

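Pik3r5 and Pik3cd made up the 2 genes past the adjusted p. This count was 1 when library totals were the sole scaling, 1 with a term for libraries that hold Y-linked counts, and 1 to 2 when a library was left out, and in each fit with a count of 1 Pik3cd was the gene lost. Of the other pathway genes 17 passed the adjusted p, and leaving out a library gave 11 (without WGP replicate 1) to 20 (without PBS replicate 1). The groups share replicate numbers, and deviations of same-numbered libraries correlated at 0.08, -0.06 and 0.07, beside -0.13 to 0.05 for the other pairs. Values this small, from deviations within 3 libraries per group, do not settle whether the numbers pair the libraries. With the number as a replicate block 2 of the 9 genes passed, Pik3cd at an adjusted p of 0.0317. Of 144 estimates for the 9 genes under the 16 alternatives, 138 kept their side of the threshold and 6, all of Pik3cd, lost it. Among genes not past the test, the estimate changed sign in 4 alternatives for Pik3cg, 3 for Tsc2 and 1 for Tsc1. With library totals only the median log2 fold change of all genes was -0.16 instead of -0.05, and relative to that median Pik3cd was 0.69 instead of 0.70 and Pik3r5 1.39 instead of 1.38. At the depth of these libraries the 9 genes had at least 1644 counts each in every library, and their intervals reflect the spread between 3 libraries per group.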

Other observations

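ATF4, a transcription factor of the amino acid response that mTOR complex 1 can raise, and 10 genes of amino acid and one-carbon supply, moved in both directions. Of these 11 genes 2 rose and 3 fell at an adjusted p of at most 0.05 (edgeR), beside 7.54% and 6.81% of all genes tested. Atf4 had 533, 419 and 328 CPM in PBS replicates 1, 2 and 3 and 209, 203 and 201 CPM in WGP replicates 1, 2 and 3, and fell by 1.06 on the log2 scale (SE 0.18, adjusted p = 0.00313). Slc7a11, the cystine transporter, had 20.6 to 37.9 CPM in PBS and 128 to 170 CPM in WGP (log2 fold change 2.29, SE 0.24, adjusted p = 0.000173). Mthfd2, a mitochondrial enzyme of the folate cycle, had 21.8 ± 2.13 CPM in PBS and 46.7 ± 1.51 CPM in WGP (SD, n = 3 each; log2 fold change 1.10, SE 0.19, adjusted p = 0.00295). Psph, the last enzyme of serine synthesis, had 6.62 to 8.04 CPM in PBS and 1.08 to 1.85 CPM in WGP (log2 fold change -2.45, SE 0.61, adjusted p = 0.0228). Slc7a5, the leucine transporter, had a log2 fold change of -1.18 (SE 0.29, adjusted p = 0.0221). In PBS the 3 genes that fell had the order of the B cell, neutrophil and NK cell marker sums, highest in replicate 1, and Slc7a11 and Mthfd2 did not. The part of these cells was not tested. The calls of Slc7a5 and Psph were lost in 6 of 16 alternatives each, Slc7a5 without any 1 library but PBS replicate 3 (0.0510 to 0.0939), and Psph when PBS replicate 2 (0.0956), PBS replicate 3 (0.0505) or WGP replicate 3 (0.0627) was left out.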
